A study of Mus musculus with 2 samples.

Results

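The miRNAs described here are those encoded inside the mouse Hox gene clusters, taken as 8 mature names: mmu-miR-10a-5p, mmu-miR-10a-3p, mmu-miR-10b-5p, mmu-miR-10b-3p, mmu-miR-196a-5p, mmu-miR-196b-5p, mmu-miR-615-3p and mmu-miR-615-5p, written below without the species prefix. The rule takes them by name and uses no measured value, and 7 of the 8 were among the 1477 miRNA names listed in at least 1 of the libraries. The data were 2 replicate libraries of 1 group, so no condition is compared with another. Cultured mouse skin keratinocytes expressed an exogenous Dsp-BirA fusion (desmoplakin, a protein of the desmosomal plaque, joined to a biotin ligase) and were treated with biotin, and RNA bound to the biotinylated proteins was recovered on streptavidin beads. The series used CLEAR-CLIP, a method that ligates Argonaute-bound miRNAs to the RNAs they pair with, to ask what Argonautes do at the plaque. Both libraries carry the fusion and the biotin treatment, and neither a library without the fusion nor one of total cell RNA was analysed here, so a level is an amount recovered and not an enrichment. The labels give neither the promoter of the fusion nor the body site of the skin, and do not say whether the replicates came from separate cultures, so spreads between them may be technical.

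Hox genes encode transcription factors that set position along the body axis, and they lie in clusters whose gene order matches the order in which they are used along that axis. Adult skin cells can keep a Hox pattern of their body site, which was not tested here. The miRNAs between and within these genes are transcribed from the same chromosomal domains, and miR-10 and miR-196 are known to repress Hox mRNAs. An Argonaute protein loads 1 strand of the hairpin and finds targets mainly through the seed, bases 2 to 8 of the miRNA.

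The 5p names of miR-10 and of miR-196 formed pairs that share a seed and differ at 1 base, so they are shown first. The sequences are from RefSeq with coordinates of GRCm38.p6, all 8 names matched, and the seed is in capitals.
miR-10a-5p: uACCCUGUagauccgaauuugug
miR-10b-5p: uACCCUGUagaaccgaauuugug
miR-196a-5p: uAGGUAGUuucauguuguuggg
miR-196b-5p: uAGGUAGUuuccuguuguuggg
miR-615-3p: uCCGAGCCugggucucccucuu
miR-615-5p: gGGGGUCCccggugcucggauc
miR-10a-5p and miR-10b-5p differ by U12A, counted from 1 at the 5′ end with the base of miR-10a-5p first. miR-196a-5p and miR-196b-5p differ by A12C on the same count. Both differences lie outside the seed. miR-10a-3p and miR-10b-3p differ at 3 bases, the first of them A3G within the seed.

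The 8 names come from 6 hairpin genes in the 4 Hox clusters. Mir10a (chr11:96317165-96317274, plus strand) lay in the HoxB cluster, inside the annotated span of Hoxb3 and 992 bp from Hoxb4. Mir196a-1 (chr11:96265164-96265265, plus strand) lay between genes of the same cluster, 6064 bp from Hoxb9. Mir196a-2 (chr15:102973350-102973434, plus strand) lay between Hoxc10 and Hoxc9 in HoxC, 1451 bp from the former and 3597 bp from the latter. Its mature 5p sequence is identical to that of Mir196a-1, so miR-196a-5p counts cannot be split between HoxB and HoxC. Mir615 (chr15:103014910-103015001, plus strand) lay inside the span of Hoxc5. Mir196b (chr6:52230081-52230165, minus strand) lay between Hoxa9 and Hoxa10 in HoxA, 1031 bp from Hoxa10. Mir10b (chr2:74726070-74726137, plus strand) lay in HoxD, inside the overlapping spans of Hoxd3 and Hoxd4. The gene table gives spans without exons, so whether a hairpin within a span is exonic or intronic was not determined. No other miRNA gene of the RefSeq table lay within these clusters.

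**Figure D1:**
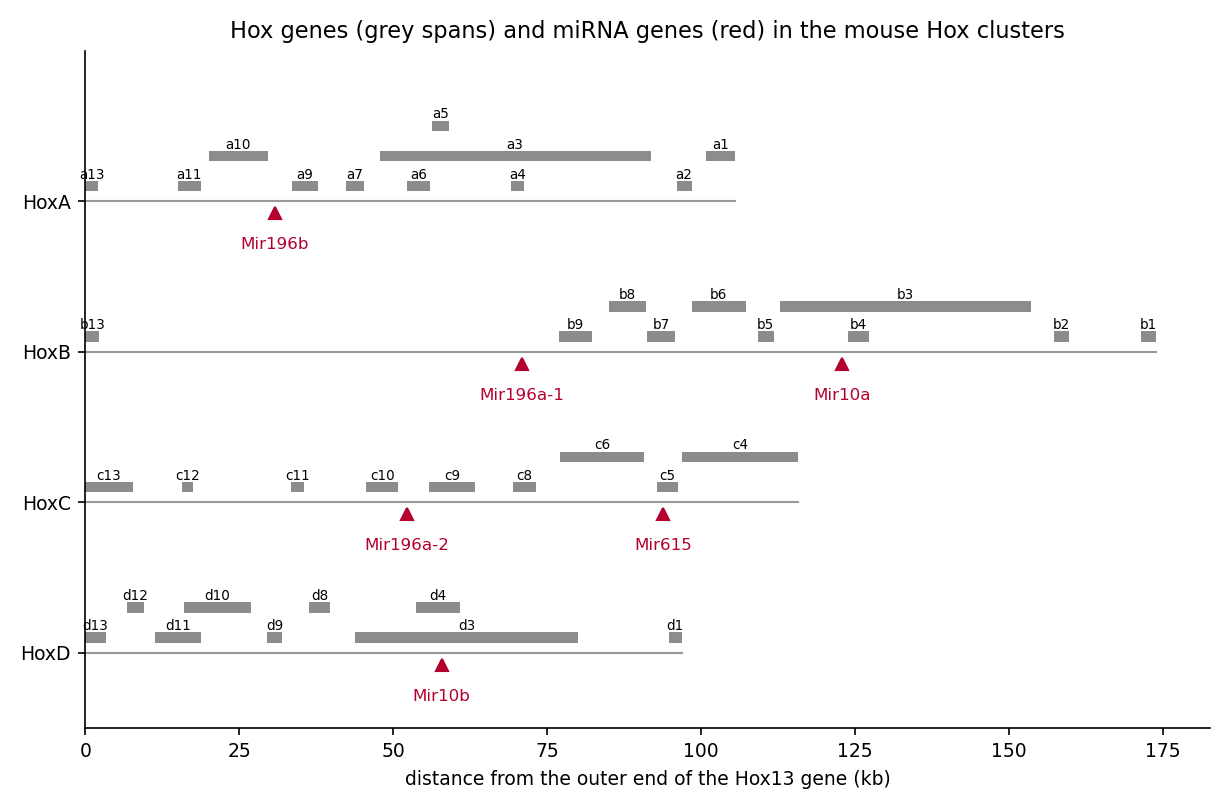
Each line is a mouse Hox cluster, drawn to scale as distance in kb from the outer end of its Hox13 gene. Grey bars are annotated spans of Hox genes, stacked only where they or their names would overlap, and red triangles are miRNA genes, with Mir10a and Mir196a-1 in HoxB, Mir196a-2 and Mir615 in HoxC, Mir196b in HoxA and Mir10b in HoxD.

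The libraries held 3776893 miRNA counts in replicate 1 and 4122955 in replicate 2, and values are given as CPM, counts per 1000000 miRNA counts. Where a name was at 0, the limit is taken as 3 counts, which is 0.794 CPM in replicate 1 and 0.728 CPM in replicate 2. Wilson and Clopper-Pearson 95% intervals are used below. The handling of PCR copies is not given, and intervals and limits cover counting error only. The keratinocyte label was checked on 7 epithelial miRNAs, which were found in both libraries with a summed level of 105854 and 106177 CPM. Against this, 5 mesenchymal names summed to 24.9 and 101.1 CPM, and 3 muscle names to 34.7 and 20.4 CPM. The muscle counts were mostly miR-206-3p (122 and 78), with miR-133a-3p at 9 and 0 and miR-1a-3p at 0 and 6. The neuronal names miR-9-5p and miR-124-3p summed to 113.9 and 101.6 CPM. Of these, miR-9-5p had 418 and 419 counts and miR-124-3p 12 and 0. Blood names summed to 6.09 and 11.9 CPM. The melanocyte name miR-211-5p had 0 and 5 counts. The endothelial miR-126a-3p and miR-126a-5p summed to 515.5 and 426.4 CPM.

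The Hox-cluster names were dominated by miR-10a-5p and miR-196a-5p. Together the 8 names took 0.240% of the counts of replicate 1 (Wilson 95% interval 0.235% to 0.245%). The share in replicate 2 was 0.236% (0.231% to 0.241%), with a mean of 0.238% ± 0.00277 (SD, n = 2). Of these counts, miR-10a-5p and miR-196a-5p held 99.2% in replicate 1 and 98.7% in replicate 2. The other 6 names held 68 and 127 counts in all. Of the 8 names, 5 were found in both libraries, 2 in 1 library only and 1 in neither.

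miR-10a-5p, the strand of Mir10a that Argonautes mainly carry, had 5052 counts in replicate 1 and 5782 in replicate 2. These are 1338 CPM (Wilson 95% interval 1301 to 1375) and 1402 CPM (1367 to 1439), a mean of 1370.0 ± 45.8 CPM (SD, n = 2). It ranked 84 among the names of each library, and 94.4% of all names had a lower mean CPM. The names next to it in mean CPM were miR-298-5p with 1464 ± 177.7, miR-706 with 1439.9 ± 221.8, miR-345-5p with 1359 ± 133.7 and miR-185-5p with 1357 ± 5.95 (SD, n = 2). Each of these 4 lay closer to miR-10a-5p than the larger of the spreads of the pair.

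miR-196a-5p, from HoxB and HoxC, had 3941 counts in replicate 1 and 3821 in replicate 2. Its level was 1043 CPM (1011 to 1077) and 926.8 CPM (897.9 to 956.6), with a mean of 985.1 ± 82.5 CPM (SD, n = 2). It ranked 99 and 102. In mean CPM it was preceded by miR-32-5p with 1067 ± 21.3 and miR-467d-5p with 998.1 ± 31.9 and followed by miR-140-5p with 972.9 ± 110.7 and miR-297a-5p with 869.7 ± 60.7. Only the last of these lay farther from it than the larger of the spreads. miR-10a-5p had 1.28 times the counts of miR-196a-5p in replicate 1 (1.23 to 1.34) and 1.51 times in replicate 2 (1.45 to 1.58). miR-10a-5p was thus the higher of the pair in both libraries, by more than the spread between them (1.40 ± 0.164, SD, n = 2).

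miR-615-3p, from within Hoxc5, had 33 counts in each library, or 8.74 CPM (6.22 to 12.3) and 8.0 CPM (5.70 to 11.2). Its mean was 8.37 ± 0.519 CPM (SD, n = 2). miR-10b-5p, the HoxD copy of miR-10, had 11 and 56 counts, or 2.91 CPM (1.63 to 5.22) and 13.6 CPM (10.5 to 17.6), with a mean of 8.25 ± 7.54 CPM. miR-10a-3p, the opposite arm of Mir10a, had 22 and 37 counts, or 5.82 CPM (3.85 to 8.82) and 8.97 CPM (6.51 to 12.4), with a mean of 7.40 ± 2.23 CPM. The means of these 3 names lay closer together than the larger of the spreads in each pair, so their order is not resolved. By mean CPM the nearest names to miR-615-3p were miR-7066-3p (8.40 ± 10.8), miR-199a-3p (8.39 ± 1.24), miR-7654-5p (8.37 ± 3.60) and miR-669g (8.35 ± 4.32).

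miR-196b-5p, the HoxA copy of miR-196, had 2 counts in replicate 1 and 0 in replicate 2. miR-615-5p had 0 counts in replicate 1 and 1 in replicate 2. miR-10b-3p was at 0 in both libraries. All 3 stayed below the limit of 3 counts, so their levels are bounds.

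**Figure D2:**
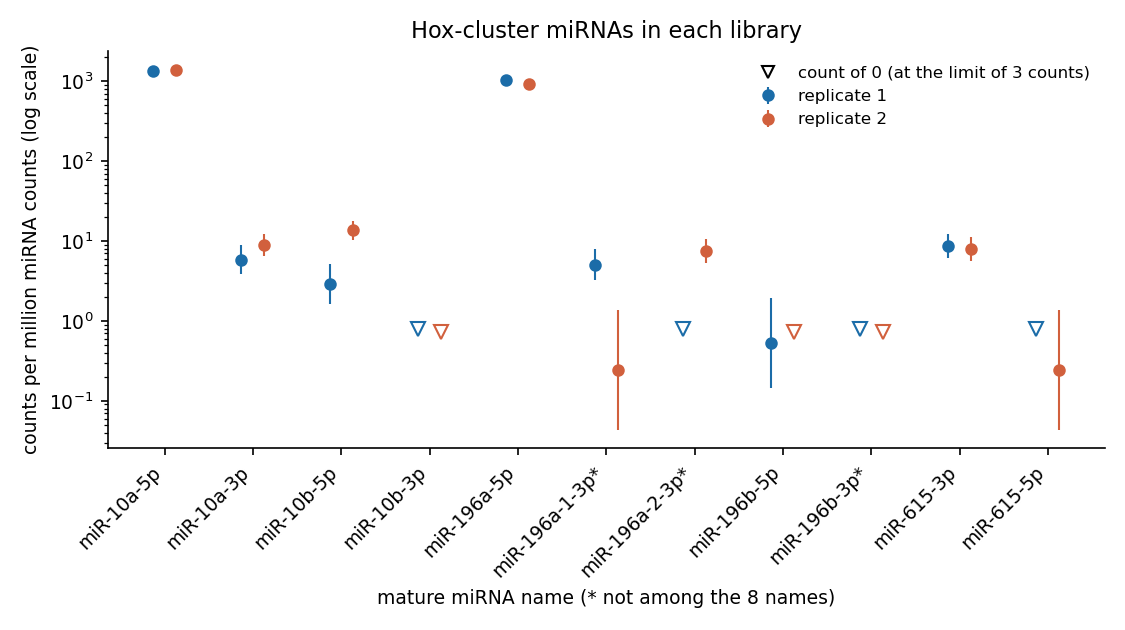
CPM on a log axis for the 8 Hox-cluster names and the 3p names of the miR-196 hairpins, 1 point per library with Wilson 95% intervals; open triangles mark a count of 0 at the limit of 3 counts. miR-10a-5p and miR-196a-5p lay between 926.8 and 1402 CPM, and no other name exceeded 13.6 CPM.

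In both pairs of 5p names that share a seed, 1 mature name carried nearly all counts. miR-10a-5p had 459 times the counts of miR-10b-5p in replicate 1 (Clopper-Pearson 95% interval 256 to 921) and 103 times in replicate 2 (79.4 to 137). The intervals do not overlap, so the size of the excess differed between the libraries by more than counting error, while its direction was the same. miR-196a-5p had 1971 times the 2 counts of miR-196b-5p in replicate 1 (545 to 16277) and was at least 1274-fold higher in replicate 2, where miR-196b-5p was at 0. Summed by seed, ACCCUGU reached 1378 ± 53.4 CPM and AGGUAGU 985.4 ± 82.9 CPM (SD, n = 2). No further name in the RefSeq table carries either seed at bases 2 to 8.

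Such uneven pairs can be set beside other pairs of names that differ at 1 base. Among the 1231 of 1477 table names with a RefSeq sequence, 12 pairs were of equal length with 1 differing base and had at least 1000 counts of the more abundant name in each library. This comparison was chosen after the values were seen. Names without a sequence, or listed in neither library, could not enter it, so more uneven pairs may be missing. miR-10b-5p had 0.218% and 0.969% of the counts of miR-10a-5p, a mean of 0.593% ± 0.531. miR-196b-5p had 0.0507% of those of miR-196a-5p in replicate 1, and its 0 in replicate 2, taken as 3 counts, would be 0.0785%. In the other 10 pairs the mean share of the lesser name ran from 3.31% to 75.2%, with a median of 41.6%. Several of these 10 pairs were between let-7 names. The nearest was miR-29c-3p with 3.31% ± 0.0602 of miR-29a-3p, followed by miR-106a-5p with 5.06% ± 0.223 of miR-17-5p. The Hox-cluster pairs had the lowest shares of these 12, and let-7f-5p, which like them differs from its partner at base 12 (G12A), had 63.3% ± 3.0 of let-7a-5p. How reads with 1 mismatched base were assigned is not given in the sources used here, so counts of miR-10b-5p and miR-196b-5p may include reads of their partners, which was not tested.

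**Figure D3:**
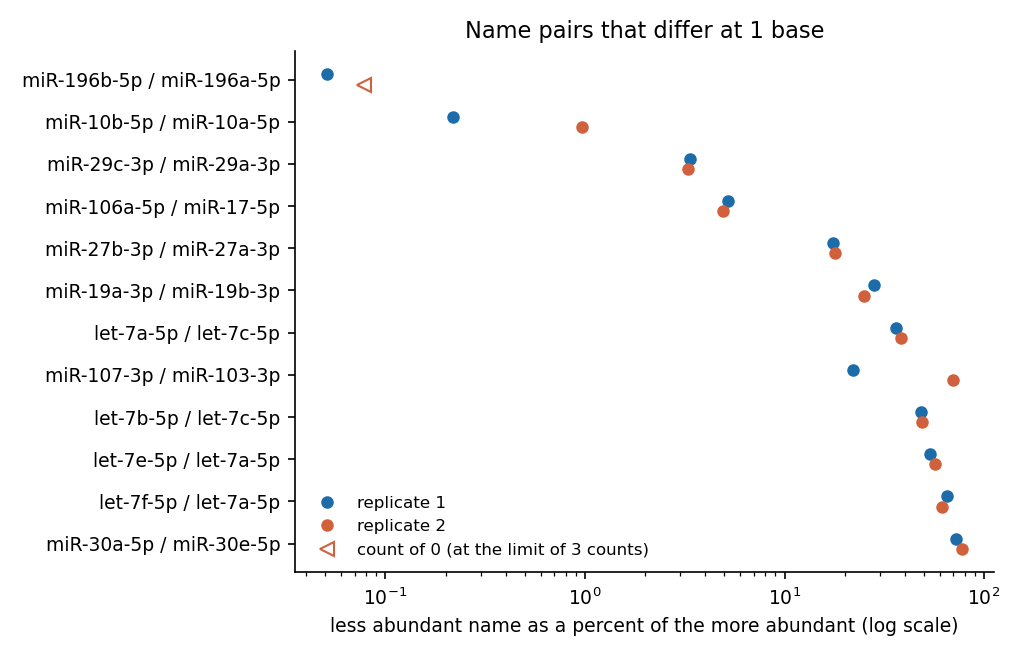
For 12 pairs of names that differ at 1 base, the count of the less abundant name as a percent of the more abundant, on a log axis, with 1 point per library; the open triangle marks a count of 0 at the limit of 3 counts. The pairs miR-196b-5p with miR-196a-5p and miR-10b-5p with miR-10a-5p stayed below 1%, and the lowest of the other 10 had a mean of 3.31%.

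The hairpins of miR-10a, miR-10b and miR-615 were read mainly from 1 arm. The Mir10a hairpin is shown with both mature arms in capitals, because its 2 arms are the only ones of a Hox-cluster hairpin among the 8 names that were both found in each library.
Mir10a: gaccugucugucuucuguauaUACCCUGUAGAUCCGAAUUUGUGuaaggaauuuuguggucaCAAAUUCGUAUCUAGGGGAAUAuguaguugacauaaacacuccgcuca
The 5p arm held 99.6% of the counts of miR-10a in replicate 1 (99.3% to 99.7%, Wilson) and 99.4% in replicate 2 (99.1% to 99.5%). Its excess over the 3p arm was 230-fold in replicate 1 (152 to 367) and 156-fold in replicate 2 (113 to 222). The exact two-sided binomial test of equal arms was adjusted by Benjamini-Hochberg over 164 hairpins. These had each arm listed in at least 1 library and at least 100 counts in each library. Hairpins with all counts on 1 arm, or with an arm named by gene number, did not enter. For miR-10a the test passed a threshold of 0.05 in both libraries. It did so, with the same arm higher in both, for 91.5% of the 164 hairpins, and with the 5p arm higher for 58.5%. The dominant arm of miR-10a held a larger share than that of 133 of the 164 (81.1%), for which the median was 94.6%.

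The hairpins of miR-10b and miR-615 were too shallow for that test. miR-10b had 11 and 56 counts on the 5p arm and 0 on the 3p arm. Taken as 3 counts, the 0 would be 27.3% of the 5p counts in replicate 1 and 5.36% in replicate 2. The upper ends of the Wilson intervals of the 3p share of both arms are 25.9% and 6.42%. miR-615 had the opposite preference, with 33 of 33 counts on the 3p arm in replicate 1 (3p share 89.6% to 100%, Wilson) and 33 of 34 in replicate 2 (85.1% to 99.5%). In the pairs from Mir10a, Mir10b and Mir615, the arm with more counts begins with U and the other with C, C and G. Of the 1231 table names with a RefSeq sequence, 40.6% begin with U, and these held 64.2% ± 0.586 of the counts (SD, n = 2).

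The 3p arms of the miR-196a hairpins differ in sequence and so can name the gene, which the shared 5p arm cannot. They are shown in full within their hairpins, with the mature arms in capitals.
Mir196a-1: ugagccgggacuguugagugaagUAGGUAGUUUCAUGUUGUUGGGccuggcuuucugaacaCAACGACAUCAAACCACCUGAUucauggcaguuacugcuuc
Mir196a-2: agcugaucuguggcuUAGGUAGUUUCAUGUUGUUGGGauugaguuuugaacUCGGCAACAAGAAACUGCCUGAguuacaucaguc
miR-196a-1-3p, from HoxB, had 19 counts in replicate 1 and 1 in replicate 2. miR-196a-2-3p, from HoxC, had 0 in replicate 1 and 31 in replicate 2. The libraries thus named opposite genes, and the counts do not settle which Mir196a gene gave the miR-196a-5p reads. The sum of both 3p names was 19 and 32 counts, and miR-196a-5p had 207 times (133 to 345) and 119 times (84.4 to 175) that sum. miR-196b-3p was at 0 in both libraries.

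The replicates were then compared name by name, with an exact two-sided binomial test of each name's split against the library totals. It covered 1002 names whose counts averaged 10 or more, and p-values adjusted by Benjamini-Hochberg were held to 0.05. It compares 2 libraries and not conditions, and 5 of the 8 Hox-cluster names were deep enough for it. Of these, 3 differed, beside 70.6% of all names. miR-10a-5p and miR-10b-5p were higher in replicate 2 (2 of 5, beside 36.2% of all names) and miR-196a-5p was lower (1 of 5, beside 34.3%). Under the added condition of a 2-fold ratio, only miR-10b-5p was left of the 5, beside 44% of all names. Counts were also divided by 20.7, the average variance-to-mean index of names with a mean count of 10 to under 300. miR-10a-5p and miR-196a-5p lie above that range. With divided counts, 0 of the 5 passed the exact binomial test (0 also at an unadjusted p under 0.05), and 16 of 1001 names did. The median log2 ratio of replicate 2 over replicate 1 was 0.068 for the 5 names and -0.0048 for all names tested.

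For miR-10a-5p the log2 ratio was 0.068 (95% interval 0.014 to 0.12) with an exact binomial adjusted p of 0.0213. Among the 38 other names with a mean count within 1.5 times its own, the median absolute log2 ratio was 0.14, and 26.3% had a smaller one. For miR-196a-5p the log2 ratio was -0.17 (-0.24 to -0.11) with an exact binomial adjusted p of 5.38e-07. Of 33 names of like count, 57.6% had a smaller absolute ratio, with a median of 0.15. Both differences passed the test on read counts and were under 1.5-fold, and names of like count commonly differed by as much.

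miR-10b-5p had the largest change of the 5, a log2 ratio of 2.22 (1.27 to 3.30), or 4.66-fold, with an exact binomial adjusted p of 3.25e-07. Of 237 names of like count, 72.2% had a smaller absolute ratio, the median was 1.20, and 24 were at 0 in 1 library. miR-10a-5p and miR-10b-5p summed had a log2 ratio of 0.079 (0.024 to 0.13). The mesenchymal names also summed higher in replicate 2, with 24.9 and 101.1 CPM. All 5 of them were listed, and miR-214-3p alone went from 26 to 364 counts. miR-199a-3p had 35 and 31 counts, miR-145a-5p 23 and 16, miR-143-3p 10 and 0, and miR-199a-5p 0 and 6. Their part in the miR-10b-5p counts was not tested.

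miR-10a-3p and miR-615-3p did not pass the test. The log2 ratio of miR-10a-3p was 0.62 (-0.18 to 1.46) with an exact binomial adjusted p of 0.151, and that of miR-615-3p was -0.13 (-0.87 to 0.61) with one of 0.839. Their intervals include differences of up to 1.46 and 0.87 on the log2 scale. Of 235 names with a count like that of miR-615-3p, 4.26% had a smaller absolute ratio. Outside the 8 names, miR-196a-1-3p had 19 counts in replicate 1 and 1 in replicate 2 (exact binomial adjusted p of 2.43e-05). miR-196a-2-3p, with its 0 in replicate 1 taken as 3 counts, was 9.47-fold higher in replicate 2 (exact binomial adjusted p of 7.67e-09). Each met the minimum mean of 10 counts mainly through the library where it was high. A difference was thus favoured before the test, and nothing is concluded from these p-values.

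**Figure D4:**
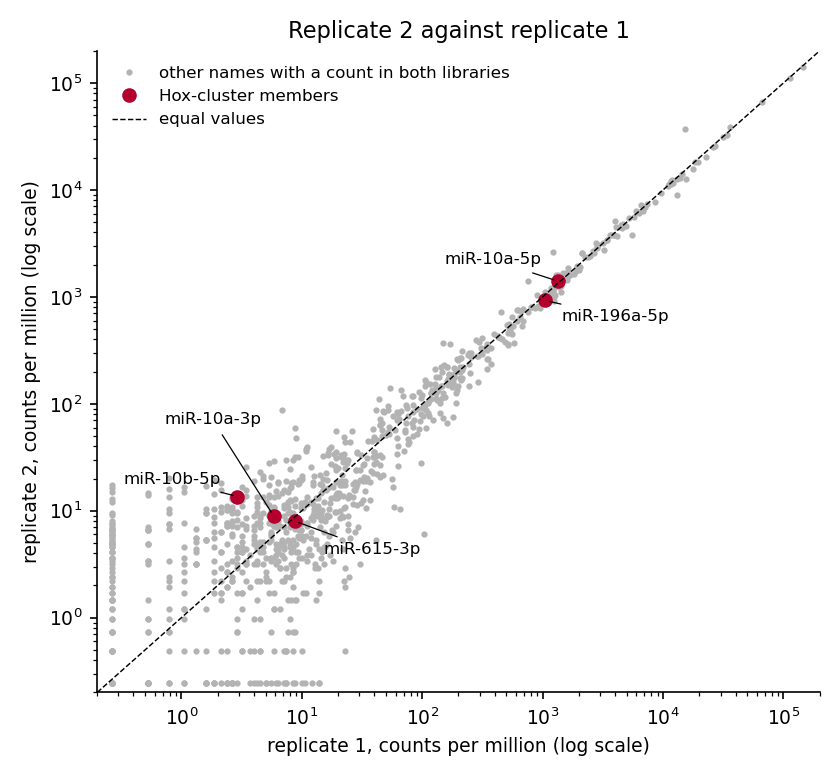
CPM in replicate 2 against replicate 1, on log axes, for the 986 names with a count in both libraries; red points are the 5 Hox-cluster names among them and the dashed line marks equal values. miR-10a-5p and miR-196a-5p lie near the line where the names are tightly grouped, and miR-10b-5p (2.91 and 13.6 CPM) lies above it where names scatter widely.

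Outside the Hox clusters, miR-99a, miR-99b and miR-100 are the closest relatives of miR-10 by sequence. Their 5p names are shown to mark where the resemblance lies, with the seed in capitals.
miR-99a-5p: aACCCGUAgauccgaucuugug
miR-99b-5p: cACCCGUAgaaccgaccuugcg
miR-100-5p: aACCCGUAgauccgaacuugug
The longest run shared by miR-10a-5p and miR-100-5p was 11 bases, at bases 7 to 17 of miR-10a-5p and 6 to 16 of miR-100-5p, so the seeds differ. With miR-99a-5p the longest run was 10 bases, and with miR-99b-5p it was 5. miR-99b-5p had 7194 and 7218 counts, 1.42 times (1.37 to 1.48) and 1.25 times (1.21 to 1.29) those of miR-10a-5p. It was thus higher than miR-10a-5p in both libraries. miR-10a-5p in turn had 7.43 and 18.7 times the counts of miR-99a-5p and 63.9 and 81.4 times those of miR-100-5p. The 3 relatives together took 0.197% ± 0.0186 of the counts (SD, n = 2), beside 0.238% ± 0.00277 for the 8 Hox-cluster names.

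The miR-196 seed AGGUAGU also occurs in the let-7 family, shifted by 1 base, as let-7a-5p shows with its own seed in capitals.
let-7a-5p: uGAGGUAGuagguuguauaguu
The run lies at bases 3 to 9 in 9 names of the RefSeq table, of which 7 let-7 names and miR-98-5p were listed. Those 8 names summed to 41819 ± 2167 CPM (SD, n = 2), far above the 985.4 ± 82.9 CPM of the miR-196 5p names.

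Against miRNAs known for keratinocytes, the Hox-cluster names were minor. miR-205-5p, an epithelial miRNA abundant in basal keratinocytes, had 25.1 times (24.5 to 25.9) the counts of miR-10a-5p in replicate 1 and 23.1 times (22.5 to 23.7) in replicate 2. miR-203-3p, which rises as keratinocytes differentiate, had 3.25 times (3.15 to 3.35) and 3.19 times (3.10 to 3.29). Set against miR-196a-5p, miR-203-3p had 4.17 times (4.02 to 4.31) and 4.83 times (4.67 to 5.01) the counts. Such ratios between names compare reads, and ligation or amplification may favour some sequences.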

How the data were processed

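Small RNA recovered with streptavidin was counted in 2 libraries. Each table the authors deposited pairs a mature miRNA name with a raw whole-number count and has no header. Per the submitters' processing notes, cutadapt and Novoalign were used with the build mm10. The miRNA reference, the counting rule, the handling of PCR copies and multiply matching reads, and whether chimeric reads were included are not given in the sources used here. Rows without a miRNA name were left out of totals. They held 0.00265% and 0.000218% of the counts of replicates 1 and 2.

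Names missing from a table were set to 0. The counts of the replicates differed by more than sampling noise (chi-square of 60.6 per degree of freedom over 1162), so each was used as a library of its own. A comparison of 2 single libraries leaves no residual degrees of freedom for edgeR's quasi-likelihood test, so exact binomial tests were used. These were tried on simulated counts with sampling noise only. That trial cannot show how they behave with the larger differences between these libraries. TMM factors came from edgeR 4.0.16 and size factors from DESeq2 1.42.0 (R 4.3.3). The rest used Python 3.11.15, numpy 2.4.6, pandas 2.3.3, scipy 1.17.1 and matplotlib 3.10.9. Coordinates, spans and sequences are from RefSeq tables of GRCm38.p6, the build the notes call mm10.

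The members, lists and tests were chosen with earlier results of these data known. The rule for names covered the 8 members, the other arms of their hairpins, names sharing a seed, the miR-99 and miR-100 relatives, miR-205-5p and miR-203-3p, and the nearest names in mean CPM. Alternatives were other scalings, count minimums, thresholds, a pseudocount, summed libraries and leaving out each library.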

Additional observations from a re-analysis of the deposited data

How the results depend on the processing

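The share of counts held by the 8 names was 0.277% in a total without the most abundant miRNA, which follows from the smaller total, and moved by less than its SD under TMM and DESeq2 factors. The number of names that differed between the libraries was 254 at a mean count of 100 or more (fewer names tested) and 441 with a 2-fold minimum. It was 16 with counts divided by 20.7, the average variance-to-mean index of names with a mean count of 10 to under 300. The Hox-cluster names that differed were 1 with the 2-fold minimum and 0 with divided counts, where 0 of 5 had an unadjusted p under 0.05. They were 3 under the TMM, DESeq2 and no-minimum settings, and 2 at an adjusted p of 0.01, where miR-10a-5p no longer passed, and at a mean count of 100 or more, where miR-10b-5p was not tested. The divisor came from these libraries, so a drop was built in. Leaving out each library gave 0.236% to 0.240% for the 8 names, 99.4% to 99.6% for the 5p arm of miR-10a, 100% for that of miR-10b, 0% to 2.94% for that of miR-615, 0.218% to 0.969% for miR-10b-5p over miR-10a-5p and 0% to 0.0507% for miR-196b-5p over miR-196a-5p. The binomial tests need both libraries and were not run this way. No paired analysis was possible because both libraries belong to 1 group. Depth limits statements on miR-10b-3p, miR-196b-5p and miR-615-5p to upper bounds.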
